A study of Mus musculus with 4 samples.

Results

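The genes described here are 9 antiviral genes of the mouse: Oas1a, Oas1g and Oasl2 of the oligoadenylate synthetase (OAS) family, the RNA sensors Ddx58 and Ifih1, the transcription factors Stat2 and Irf9, and the effectors Bst2 and Ifit2. They were picked by gene name from a table of 54146 mouse genes, and they were chosen on results of the KO against WT comparison that were already known, so their differences between genotypes are a description and carry no test. All 9 were found and all 9 were among the 16789 genes with enough counts to be tested. Nascent RNA was measured by TT-seq in embryonic stem (ES) cells kept in LIF and serum, with 2 libraries labelled Supt3 WT and 2 labelled Supt3 KO, and 4-thiouridine-labelled RNA of S. pombe, a fission yeast, was added to each as a spike-in. TT-seq labels RNA with 4-thiouridine while it is made, so the purified RNA reports transcription under way rather than stored RNA. Supt3 encodes a subunit of the SAGA transcriptional coactivator. The labels name no cell line and no allele, do not say how the gene was mutated or whether the KO cells are 1 clone, and do not state separate cultures for the libraries. Spread and p-values therefore measure only differences between these libraries, which may be technical.

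Vertebrate cells detect viral RNA with cytosolic helicases such as RIG-I (encoded by Ddx58) and MDA5 (encoded by Ifih1), which signal through the adaptor MAVS to the interferon genes. Secreted type I interferon acts through its receptor and the JAK kinases on a complex that holds STAT2 and IRF9 and binds the interferon-stimulated response element (ISRE) in the promoters of antiviral genes, the OAS genes among them. OAS enzymes make short oligoadenylates on meeting double-stranded RNA, and these activate RNase L. Mouse ES cells are known for a weak interferon response.

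Promoter sequence was not used to choose the genes, and is shown for the members with an ISRE core in the bases before the start site. The core searched was GAAANNGAA on both strands, in RefSeq windows (GRCm38.p6) of 250 bases before to 50 bases after the start site. Windows were found for all 9 genes. The core was in the windows of 6 of them (Oas1a, Oas1g, Ddx58, Ifih1, Stat2 and Bst2), while 8.56% of the 32851 windows of all genes held it. In the stretches below, 5′ to 3′ on the strand of the gene, capitals mark the core matches, which overlap each other by 3 bases in Oas1a, Oas1g and Bst2 and lie on the opposite strand in Stat2 and Ifih1.
Oas1a (chr5:120907526-120907575, minus strand): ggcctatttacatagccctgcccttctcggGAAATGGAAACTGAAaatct
Oas1g (chr5:120887614-120887661, minus strand): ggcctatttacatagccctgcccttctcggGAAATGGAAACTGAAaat
Bst2 (chr8:71537553-71537632, minus strand): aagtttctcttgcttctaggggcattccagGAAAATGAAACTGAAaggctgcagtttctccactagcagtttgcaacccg
Stat2 (chr10:128270248-128270327, plus strand): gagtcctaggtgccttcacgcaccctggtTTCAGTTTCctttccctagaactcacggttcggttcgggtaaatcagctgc
Ifih1 (chr2:62646318-62646397, minus strand): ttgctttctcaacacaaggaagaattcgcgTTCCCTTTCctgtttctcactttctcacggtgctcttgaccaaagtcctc
The Oas1a and Oas1g stretches are the same up to the last bases, and put the paired core right before the start site, from -20 to -6 in Oas1a and from -18 to -4 in Oas1g. The paired core of Bst2 began at -130, and the single cores of Stat2 and Ifih1 began at -221 and -112. The Ddx58 match, and another in Ifih1, lie in the transcribed part of the window and are not shown. The windows of Oasl2, Irf9 and Ifit2 held no such match. With only the 250 bases before the start searched, the core was in 5 of the 9 genes and 7.13% of all windows. With 1 more A required after it, the core was in 6 of the 9 and 3.44% of all windows. The core of the gamma-activated site, TTCNNNGAA, was in the windows of Oas1a, Bst2 (where it overlaps the ISRE core) and Ifit2, against 8.30% of all windows. A match is a description of letters and not a measured binding site, and the RefSeq start sites of Bst2 and Stat2 lie 16 and 61 bases from the nearest GENCODE one.

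**Figure D1:**
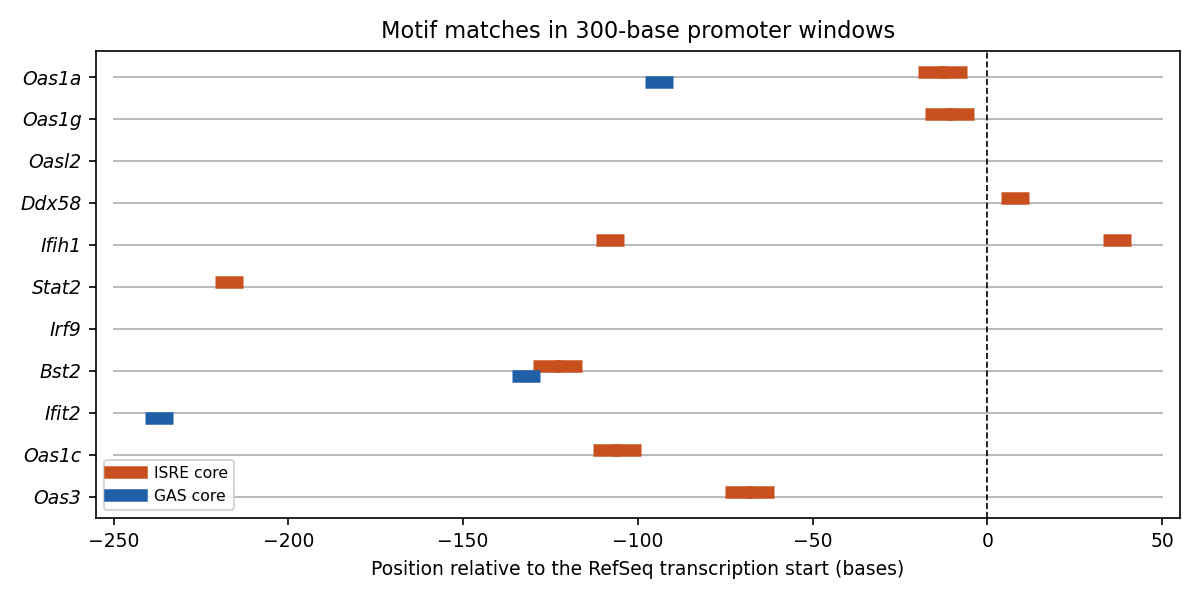
Positions of ISRE and GAS core matches in the RefSeq promoter windows of the 9 genes and of Oas1c and Oas3, in bases from the start site (dashed line). Matches on either strand are drawn as boxes; 6 of the 9 genes have an ISRE core, and the boxes of Oas1a and Oas1g lie next to the start site.

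Levels are CPM, mouse counts per 1e6 with the library totals adjusted by TMM factors (trimmed mean of M-values), in the order WT replicate 1, WT replicate 2, KO replicate 1, KO replicate 2. The libraries held 13.5, 19.4, 13.1 and 18.4 M mouse counts (M, 1e6), so that 1 count is worth 0.0523 to 0.0742 CPM. Replicate numbers follow accession order, and the labels pair no libraries. In both genotypes replicate 1 had fewer counts than replicate 2, and differences between libraries of like depth are given with that grouping, which comes from the totals and not from the labels. In all genes together, edgeR's quasi-likelihood test with Benjamini-Hochberg adjustment under 0.05 called 8.07% of the 16789 tested genes, 4.05% higher and 4.02% lower in KO. Both KO libraries lay below both WT libraries in 26.0% of tested genes and above both in 26.7%. Supt3 itself had 148, 159, 123 and 140 CPM (log2 fold change -0.22 ± 0.10 SE, adjusted p = 0.232 in the edgeR fit), so its nascent RNA over the whole gene did not check the labels.

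Lower values in KO were most marked in the OAS pair. Oas1a, on chromosome 5 at 120896256-120907521 (mm10, minus strand), encodes an enzymatically active synthetase. Its libraries gave 3.15, 4.08, 1.04 and 1.01 CPM, from 43, 78, 14 and 18 counts. Both KO libraries lay far below both WT libraries, and the groups did not overlap. WT averaged 3.61 ± 0.66 CPM and KO 1.02 ± 0.02 CPM (SD over 2 libraries), a log2 fold change of -1.83 ± 0.31 (SE). Its neighbour Oas1g, an OAS gene of the same cluster at 120876142-120887613 on the same strand, gave 2.86, 4.81, 0.519 and 0.954 CPM, from 39, 92, 7 and 17 counts. The WT libraries differed from each other more than for Oas1a, and the KO libraries were again the lower ones. The log2 fold change was -2.35 ± 0.40 (SE), from means of 3.83 ± 1.38 and 0.737 ± 0.307 CPM (SD, n = 2 each). Summed over the libraries of a genotype and scaled by library size, the KO over WT ratio was 0.277 for Oas1a (95% exact interval 0.181 to 0.412) and 0.192 for Oas1g (0.119 to 0.298). These intervals cover counting error only, not the spread between libraries, and PCR copies would make them too narrow. Both genes were chosen on this contrast, so the intervals are no test of it. The lowest count, 7 reads of Oas1g in KO replicate 1, has an exact 95% Poisson interval of 2.81 to 14.4.

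Reads of Oas1a and Oas1g cannot be fully told apart. Their longest GENCODE M21 transcripts were 97.5% identical over 1860 aligned bases, and 57.6% of the 50-base windows of the Oas1a transcript also occur in Oas1g. The next nearest relative compared, Oas1f, was 78.2% identical to Oas1a. These comparisons cover spliced transcripts only, and the exons make up 1.885 kb of the 11.266 kb span of Oas1a. Introns were counted too, and their likeness was not measured. The sources used here do not say how reads that match both genes were counted. The level of each gene is uncertain for that reason, while the difference had the same direction in both.

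Oasl2, on chromosome 5 at 114896936-114912234 (plus strand), lies apart from that cluster and encodes an OAS-like protein with ubiquitin-like repeats. Its libraries gave 2.79, 2.14, 1.48 and 1.07 CPM, from 38, 41, 20 and 19 counts. KO lay below WT without overlap, although the gap was narrower than for Oas1a and Oas1g. The log2 fold change was -0.95 ± 0.33 (SE), with means of 2.46 ± 0.45 and 1.28 ± 0.30 CPM (SD, n = 2 each).

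The RNA sensors differed from each other. Ddx58, on chromosome 4 at 40203773-40239828 (minus strand), encodes RIG-I, which binds short viral RNA ends, and had the most counts of the 9 genes. Its libraries gave 25.7, 27.0, 11.7 and 17.7 CPM, from 351, 517, 158 and 316 counts. The WT libraries were close together, the KO libraries differed from each other by more, and both were below WT. The means were 26.4 ± 0.92 and 14.7 ± 4.25 CPM (SD, n = 2 each), a log2 fold change of -0.83 ± 0.18 (SE). The difference was -1.13 on the log2 scale between the libraries with fewer counts and -0.61 between those with more. Ifih1, on chromosome 2 at 62595798-62646255 (minus strand), encodes MDA5, which binds long double-stranded RNA. Its libraries gave 1.17, 0.575, 0.742 and 0.842 CPM, from 16, 11, 10 and 15 counts. Both KO values lay between the WT values, so the groups overlapped, and the log2 fold change was -0.07 ± 0.47 (SE). Its sign turned to 0.46 without WT replicate 1, so that at this depth no direction can be given for Ifih1.

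Stat2 and Irf9, partners in the complex that binds the ISRE, had smaller differences. Stat2, on chromosome 10 at 128270559-128292849 (plus strand), gave 8.35, 10.4, 6.31 and 7.52 CPM, from 114, 199, 85 and 134 counts. KO lay below WT without overlap, by -0.44 ± 0.19 (log2 fold change, SE). Irf9, on chromosome 14 at 55603571-55610030 (plus strand), gave 4.18, 4.65, 3.78 and 3.03 CPM, from 57, 89, 51 and 54 counts. Here too KO lay below WT, narrowly for replicate 1, and the log2 fold change was -0.39 ± 0.24 (SE). The span of Irf9 shares 123 bases with Rnf31 on the same strand, and reads in a stretch shared this way were not counted.

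The effectors pointed in different directions. Bst2, on chromosome 8 at 71534255-71537456 (minus strand), encodes tetherin, which holds budding virus particles at the cell surface. Its libraries gave 8.79, 6.17, 13.1 and 10.3 CPM, from 120, 118, 176 and 183 counts. It was the only one of the 9 with both KO libraries above both WT libraries. The means were 7.48 ± 1.86 and 11.7 ± 1.97 CPM (SD, n = 2 each), a log2 fold change of 0.65 ± 0.22 (SE). Ifit2, on chromosome 19 at 34550694-34576419 (plus strand), encodes an interferon-induced RNA-binding protein. Its libraries gave 2.71, 2.41, 2.45 and 1.63 CPM, from 37, 46, 33 and 29 counts. KO replicate 1 lay between the WT libraries, so the groups overlapped, and the log2 fold change was -0.34 ± 0.31 (SE).

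**Figure D2:**
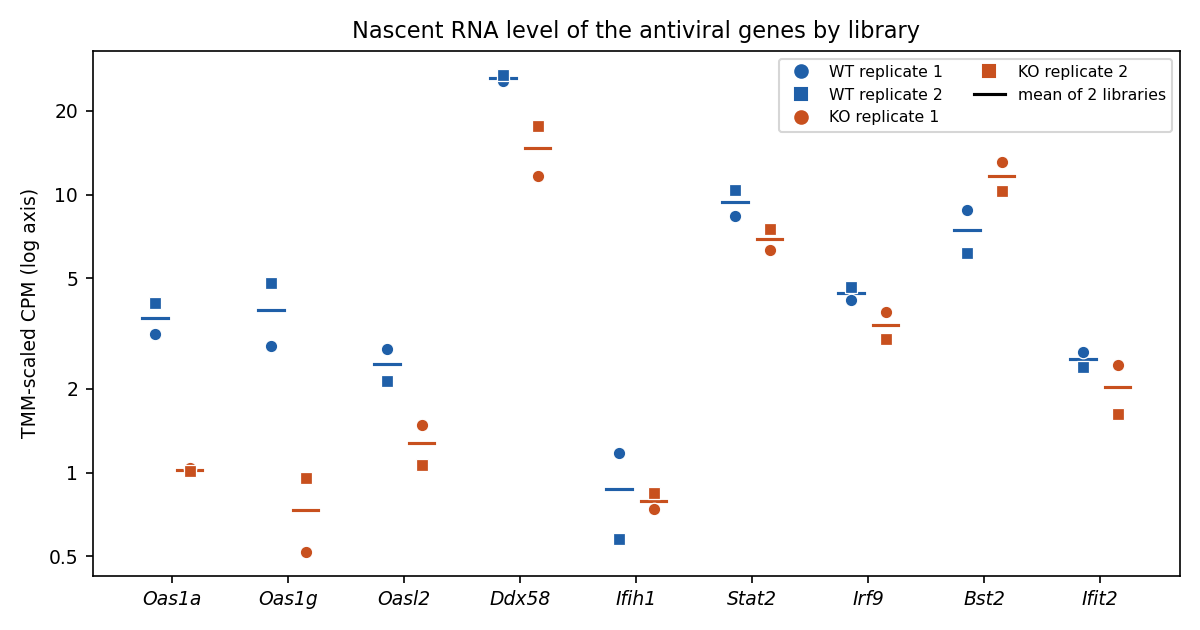
Nascent RNA level of each gene in each library (CPM on a log axis; circles, replicates 1; squares, replicates 2; line, mean of 2 libraries). Oas1a and Oas1g have KO points near 1 CPM or below against 2.86 to 4.81 CPM in WT, Bst2 is higher in KO, and Ifih1 and Ifit2 overlap.

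Of the 9 genes, 8 had a negative log2 fold change, with a median of -0.44 beside 0.01 over all tested genes. KO lay below WT in 6 and above in 1, beside 26.0% and 26.7% of all tested genes, and the groups overlapped in 2. The whole-table test called 3 lower (Oas1a, Oas1g and Ddx58) and 0 higher, beside the 8.07% of all tested genes called. Oas1g reached the minimum count for testing in both WT libraries, but not in KO replicate 1 (7 counts, against 17 in KO replicate 2). It was thus tested on account of its WT libraries, so its place among the called genes supports nothing here. Since the genes were chosen on this contrast, nothing is read from these numbers of genes. The fold differences spanned a wide range, and among the 9 the groups separated most in Oas1a and Oas1g. Relative to its SE, Ddx58 (-0.83 ± 0.18) had the smallest difference of the 3 called. Bst2 (0.65 ± 0.22) and Oasl2 (-0.95 ± 0.33) had the largest of those not called.

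Scaling changed sizes but no sign among the 9. With the S. pombe spike-in as the reference, the median of all genes shifted from 0.01 to -0.23 on the log2 scale, and Oas1a stood at -2.11, Oas1g at -2.62, Oasl2 at -1.20, Ddx58 at -1.01 and Bst2 at 0.42. In that fit 0 of the 9 were called, and 17 genes in all. Mouse counts per S. pombe count differed within each genotype (3.25 and 5.60 in WT, 2.71 and 4.86 in KO). In the authors' deposited table, which uses those spike-in factors, 8 of the 9 genes had a negative log2 fold change and 0 had an adjusted p under 0.05, as against 8 genes of the whole table. The lowest unadjusted p of the 9 there was 0.000932 for Oas1g. On the normalized values of that table KO lay below WT in 5 of the 9 genes and above it in 1, beside 13.2% and 4.09% of all tested genes, with Stat2, Irf9 and Ifih1 overlapping and Ifit2 not.

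**Figure D3:**
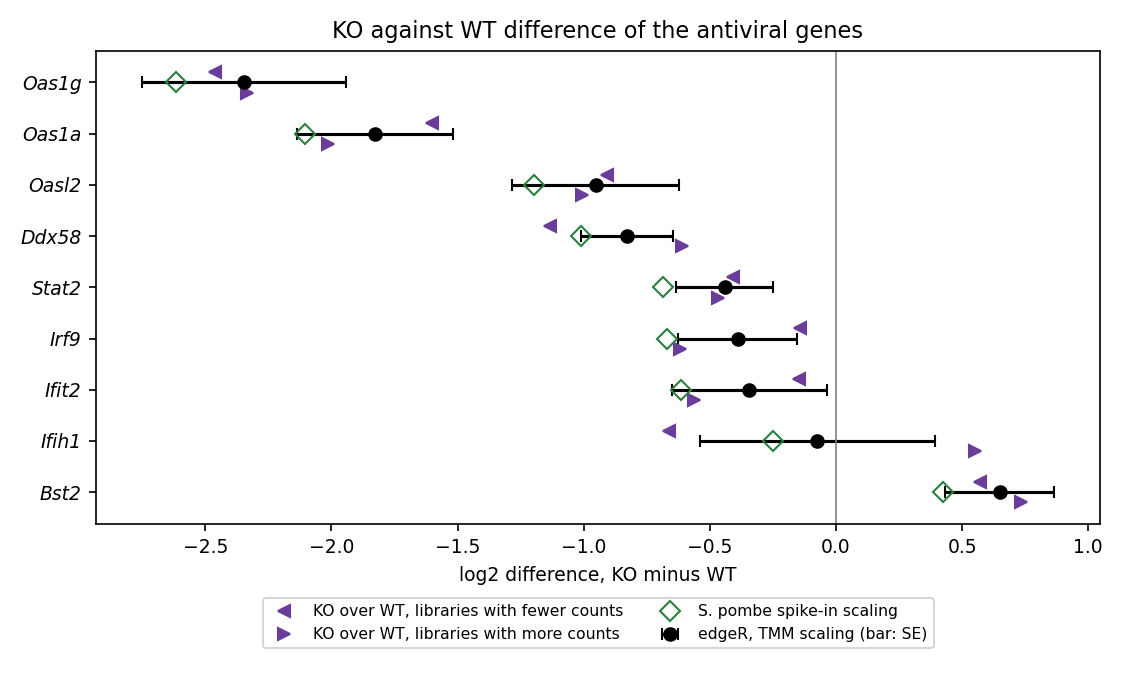
KO minus WT on the log2 scale for each gene: the edgeR estimate with its SE (black), the same with S. pombe scaling (green diamonds), and the differences between the libraries with fewer counts and between those with more (purple triangles). Oas1g and Oas1a lie farthest to the left, Ifih1 has triangles on both sides of 0, and Bst2 lies to the right of 0 throughout.

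Between genes, levels were compared per kilobase of gene span, since introns are counted in these data. In WT the order was Bst2 (2.34 CPM per kb), Ddx58 (0.732), Irf9 (0.683), Stat2 (0.421), Oas1g (0.334), Oas1a (0.321), Oasl2 (0.161), Ifit2 (0.0994) and Ifih1 (0.0173). The WT libraries overlapped for 3 of the 8 neighbours in that order: Ddx58 with Irf9, Stat2 with Oas1g, and Oas1g with Oas1a. In KO, Oas1a and Oas1g stood at 0.0909 and 0.0642 CPM per kb, close to Oasl2 (0.0833) and Ifit2 (0.0792). Bst2 was again highest in KO at 3.64 CPM per kb, followed by Irf9 (0.527), Ddx58 (0.408) and Stat2 (0.310), and Ifih1 was again lowest at 0.0157.

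The cluster that holds Oas1a and Oas1g spans 191 kb of chromosome 5 (120730333-120921652) and has 10 Oas1, Oas2 and Oas3 genes, 7 of which had enough counts to be tested. The mean CPM was lower in KO in 9 of the 10, beside a median log2 fold change of 0.01 over all tested genes. These 9 include Oas1a and Oas1g, which were chosen on this contrast. They also include the almost empty Oas1h (0, 1, 0 and 0 counts) and Oas1e (3, 4, 0 and 1 counts), so nothing is read from this number. Oas1f, the nearest other OAS gene to Oas1g and Oas1a with enough counts, had 15, 18, 1 and 2 counts, a scaled count ratio of 0.0952 (95% exact interval 0.0187 to 0.303, counting error only). It reached the minimum count through its WT libraries alone, so its place among the called genes supports nothing here. Oas1d, too low to be tested, had 8, 12, 1 and 1 counts, a ratio of 0.105 (0.0119 to 0.431). Oas1c had 17, 49, 16 and 8 counts (-1.32 ± 0.52, edgeR adjusted p = 0.170), with both KO values below both WT values in CPM. Oas1b (-0.03), which lies between Oas1f and Oas1c, and Oas3 (-0.12) and Oas2 (-0.76), which lie beyond Oas1c, were not called. Values near 0 and values far below it thus occur within the same cluster, and these differences between genes were not tested against each other.

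**Figure D4:**
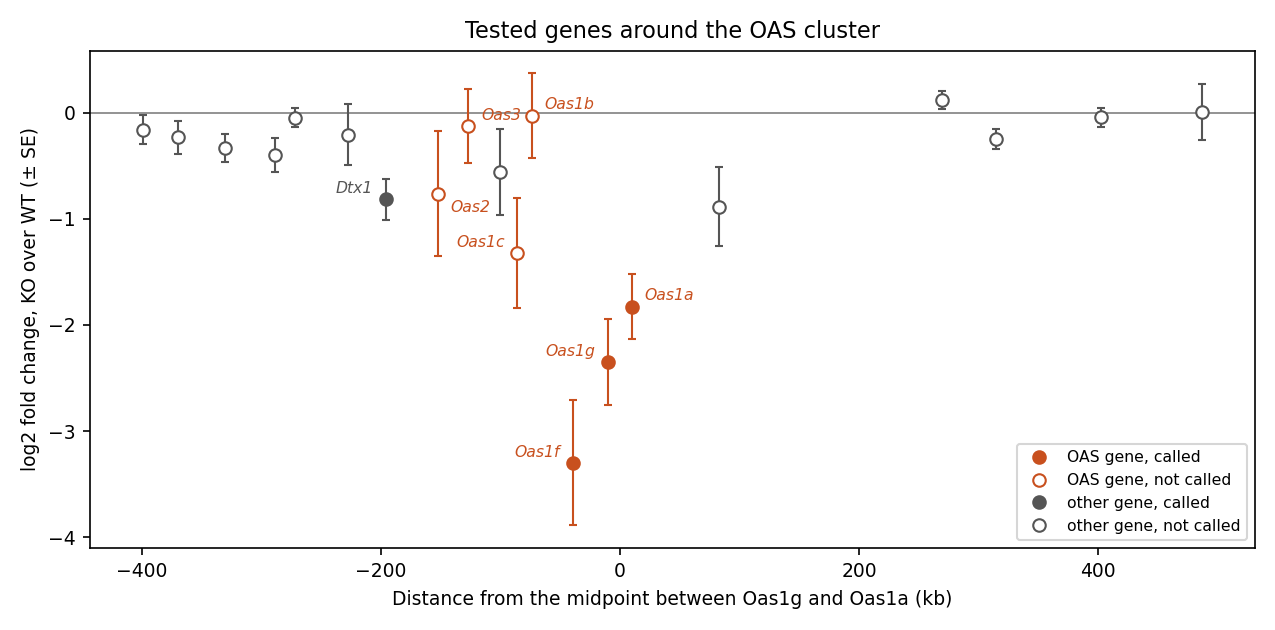
log2 fold change of KO over WT (bars, SE) for each tested gene around the OAS cluster, by distance in kb from the midpoint between Oas1g and Oas1a. Oas1f (3 KO counts in all), Oas1g and Oas1a form the lowest points, Oas3 and Oas1b lie near 0, and the 13 other genes lie between -0.89 and 0.12.

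Other tested genes around the cluster had smaller differences than Oas1a, Oas1g, Oas1f and Oas1c. Rph3a (-0.89) and Dtx1 (-0.81) lay lower than Oas2 (-0.76), Oas3 and Oas1b, however, and Gm43069 (-0.55) lies inside the cluster. The 13 other tested genes within 500 kb of the midpoint between Oas1g and Oas1a had a median log2 fold change of -0.23, and 11 of them were below 0. Of these, Dtx1, a Notch pathway ubiquitin ligase, was called lower (8.43, 7.63, 4.30 and 4.77 CPM, -0.81 ± 0.19, edgeR adjusted p = 0.0365). Around all 9 genes together, 170 other genes within 500 kb were tested, with a median of -0.03, and 2 were called higher and 3 lower, Oas1f among them. Besides Oas1f and Dtx1 these were Dpp4 near Ifih1 (-0.60, edgeR adjusted p = 0.0156), Dgka near Stat2 (0.56, edgeR adjusted p = 0.0187) and Ankrd22 near Ifit2 (1.03, edgeR adjusted p = 0.0295). None of the tested genes within 500 kb of Oasl2, Ddx58, Irf9 or Bst2 was called by edgeR. These counts depended on the processing: a term for the libraries with fewer and with more counts gave 10 higher and 16 lower.

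The other genes of the pathway came from 5 lists of 105 genes, chosen by role. Of the 10 other OAS and RNase L genes 5 were tested, Oas1f on account of its WT libraries. All 5 were below 0, with a median log2 fold change of -0.76. Under a filter of 1 CPM only 3 of them were tested, with a median of -0.13. Genes whose RNA starts the pathway gave almost no reads. Of 14 interferon genes, 13 were listed at 0 in every library and the other, Ifnz, had 1 count in all. A count of 0 allows up to 0.157 to 0.223 CPM per library (3 counts, counting error only). Ifnl2 lies wholly inside another gene of the same strand and could not gain counts here.

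Among 15 tested sensors and adaptors of 19 listed, 0 rose and 1 fell, and the median log2 fold change was 0.00. The gene that fell was Eif2ak2, which encodes PKR, a kinase that stops translation on binding double-stranded RNA (22.1, 23.1, 14.5 and 14.8 CPM, -0.63 ± 0.13, edgeR adjusted p = 0.0187). Without WT replicate 2 the adjusted p in edgeR was 0.0826. Of the 16 tested genes within 500 kb of Eif2ak2 on chromosome 17, 8 were also called lower in edgeR, with a median of -0.83; this neighbourhood was looked at after the values were seen. Myd88, an adaptor of the Toll-like receptors, lies wholly inside another gene of its strand and was listed at 0.

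Among the 14 receptor and JAK-STAT genes, all tested, 1 rose and 1 fell, and the median was 0.19 (-0.06 with S. pombe scaling). Irf2, a repressor of interferon-driven promoters, rose from 4.40 and 4.29 to 7.57 and 10.3 CPM (1.05 ± 0.22, edgeR adjusted p = 0.0212). Socs3, which inhibits JAK signalling and is a target of LIF in ES cells, fell from 69.3 and 69.1 to 50.5 and 54.1 CPM (-0.40 ± 0.09, edgeR adjusted p = 0.0309). The Socs3 call was lost in DESeq2 (adjusted p = 0.0598) and in edgeR without WT replicate 1 or WT replicate 2 (adjusted p = 0.0952 and 0.159).

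Among 48 other interferon-stimulated genes 28 were tested, 1 rose and 3 fell, and the median was -0.05. Zc3hav1, which encodes the zinc-finger antiviral protein ZAP, fell from 46.1 and 48.6 to 25.1 and 29.2 CPM (-0.80 ± 0.11, edgeR adjusted p = 0.00485). Ddx60, an interferon-induced relative of the RNA helicases, fell from 3.96 and 4.86 to 1.71 and 2.30 CPM (-1.13 ± 0.27, edgeR adjusted p = 0.0382). Phf11d fell from 17.8 and 19.1 to 12.8 and 12.7 CPM (-0.53 ± 0.13, edgeR adjusted p = 0.0448). Ifitm3, a membrane protein that blocks virus entry, rose from 33.3 and 24.9 to 45.4 and 43.2 CPM (0.61 ± 0.14, edgeR adjusted p = 0.0322). In DESeq2 the calls of Ddx60 (adjusted p = 0.0767) and Phf11d (adjusted p = 0.104) were lost, and without WT replicate 2 edgeR called neither of them nor Ifitm3 (adjusted p = 0.219, 0.263 and 0.196). With S. pombe scaling, edgeR called none of Eif2ak2, Irf2, Socs3, Zc3hav1, Ddx60, Phf11d and Ifitm3.

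**Figure D5:**
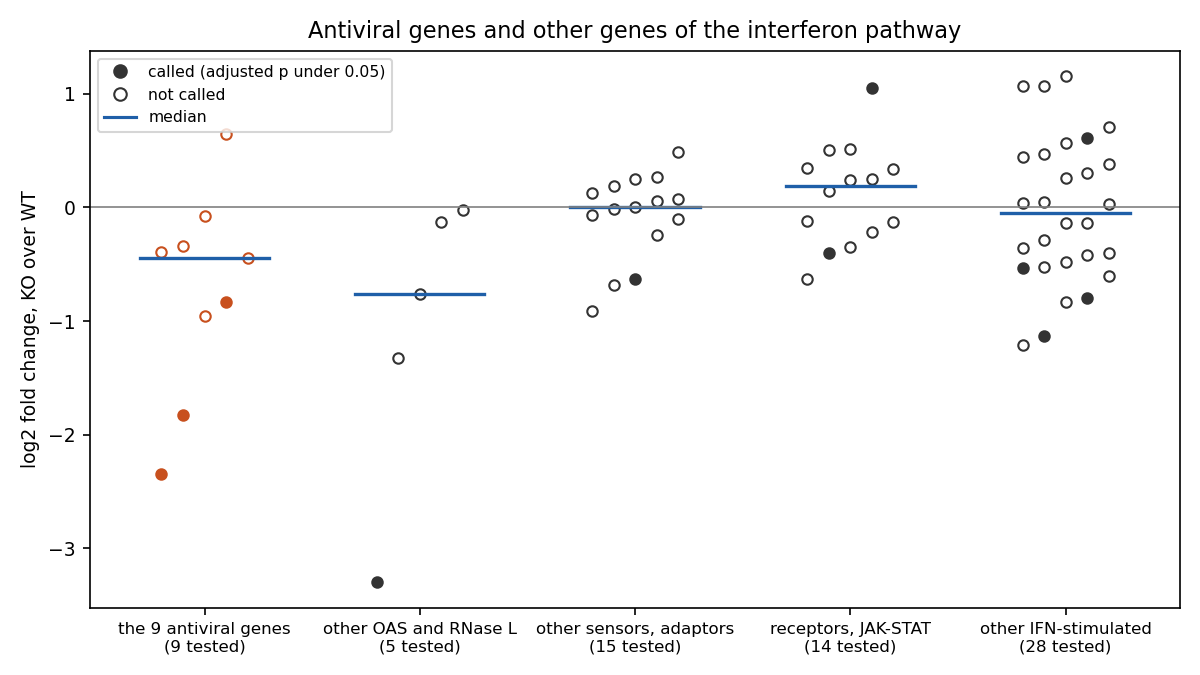
log2 fold change of KO over WT for the 9 genes and for the tested genes of the 4 pathway lists with any tested gene (filled, called; line, median). The 9 genes have a median of -0.44. The medians of other OAS and RNase L genes, sensors, receptors and other interferon-stimulated genes are -0.76, 0.00, 0.19 and -0.05.

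The ISRE core was also common in the windows of the other lists: 20 of 40 interferon-stimulated genes with a window, 7 of 14 interferon genes, 4 of 16 sensors and adaptors, 2 of 11 receptor and JAK-STAT genes and 2 of 5 other OAS genes held it. Bst2, with a paired core, had higher values in KO, while Oas1a and Oas1g, also with a paired core, had lower ones. Oasl2, with no match in its window, had the third lowest log2 fold change of the 9.

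Among 13580 tested genes with a mean of at least 2 CPM, those whose pattern over the 4 libraries was most like the mean of the 9 were Nfe2l3, Cacng4, Tmem2, Hcrtr2 and 1700042D02Rik. Their distances, between mean-centred log2 CPM values, ran from 0.0463 for Nfe2l3 to 0.0598 for 1700042D02Rik. The mean pattern of the 9 was 0.39 and 0.34 in WT and -0.37 and -0.36 in KO. With 4 libraries in 2 groups this likeness says little more than that these genes were lower in KO by a similar size.

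Markers of some other cell types moved with genotype in the same libraries. In bulk RNA, fewer cells of a type and less RNA per cell cannot be told apart. ES cell markers were present in all libraries (summed 2305, 2309, 1696 and 1890 CPM), with 9 of 10 tested. Of the 9 tested, 7 had a negative log2 fold change and 1, Nanog, was called lower (-0.53 ± 0.13, edgeR adjusted p = 0.0362). The highest mean levels were those of Esrrb (543, 612, 242 and 427 CPM, -0.79 ± 0.22) and Zfp42 (487, 548, 272 and 401 CPM, -0.62 ± 0.17), neither called. Pou5f1 had 128 to 154 CPM (0.12 ± 0.10). The untested marker, Sox2, was listed at 0 in all libraries and lies wholly inside Sox2ot on the same strand. Primitive endoderm markers summed to 497, 618, 1005 and 1440 CPM, with 8 of 12 higher in the edgeR test. Trophoblast markers summed to 83.3, 73.1, 105 and 124 CPM, with 5 of 9 tested higher. Of all tested genes, 4.05% were called higher. Fibroblast markers summed to 67.1, 72.7, 79.4 and 73.7 CPM and leukocyte markers to 30.3, 32.6, 33.8 and 37.2 CPM, with 0 called in either list. Most of the fibroblast sum was Fbln1, and Col1a1 was at 0.42 to 1.18 CPM. The part that these cell type markers have in the values of the 9 antiviral genes was not tested.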

How the data were processed

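The authors' gene tables of 4 TT-seq libraries (2 Supt3 WT, 2 Supt3 KO) were analysed. Per the submitters' processing notes the tools were STAR 2.5.3 and HTSeq 0.6.1p1, with bcl2fastq 2.20.0.422, cutadapt 1.10, DESeq2 1.16.1 and the mm10 build; per the labels' protocols the libraries are stranded and were made without ribosomal depletion. Raw counts for each gene were deposited. The authors' comparison table holds the same counts, a normalized signal (counts divided by a size factor equal to the S. pombe DESeq2 factor within 2.22e-16), a log2 fold change and p-values. The sources used here do not give the strand setting or the counted feature. All 6422 genes whose span lies inside another gene of the same strand had 0 counts, against 53.9% of the 6209 that lie inside a gene of the opposite strand only. Reads were therefore counted by strand over whole gene spans, introns included, and not where genes of a strand overlap.

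Members and gene lists were chosen with earlier results of these data known. Genes that passed filterByExpr (minimum count 10) were tested with edgeR 4.0.16 (quasi-likelihood, TMM factors, R 4.3.3), adjusted over 16789 genes. Standard errors were taken from the log2 fold change and its F statistic, and biological variation (coefficient) was 0.0952. The fit was tested on simulated data. Alternatives were DESeq2 1.42.0, S. pombe scaling, other filters, a term for libraries with fewer and more counts, and each library left out; a lone library is then assumed to vary like the other genotype. Named were the members, up to 4 called genes per list by size of change, up to 3 called neighbours per member and the 5 most similar patterns; other named genes were chosen after their values were seen. One listed gene is not reported here. Promoter windows are RefSeq's (GRCm38.p6), transcripts GENCODE M21's, aligned with Biopython 1.88. Mouse counts were 13.1 to 19.4 M (M, 1e6) per library.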

Additional observations from a re-analysis of the deposited data

How the results depend on the processing

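The labels pair no libraries, so the pairing of libraries by their totals, in the term for fewer and more counts, rests on the data alone. Among all genes, 680 were called higher and 675 lower. S. pombe scaling gave 1 and 16, no filter on low counts 1260 and 1200, a term for libraries with fewer and more counts 2214 and 2093, and leaving out a library 379 to 1481 and 439 to 1342. Of the 9 antiviral genes, 0 were called higher and 3 lower (among them Oas1g, which was tested on account of its WT libraries). No filter gave 1 higher, the depth term 1 higher and 5 lower, S. pombe scaling 0 lower, and leaving out a library 0 to 1 higher (1, Bst2, without WT replicate 1 or KO replicate 2) and 3 lower throughout. Of the other OAS genes, 1 was called lower (Oas1f, which reached the minimum count through WT alone). S. pombe scaling also gave 1, no filter 3 and the depth term 2. DESeq2 gave 0, but no adjusted p is listed for Oas1f under it. A filter of 1 CPM gave 0, but only 3 of these genes were tested under it, and Oas1f was not among them. Of sensors and adaptors, 0 were called higher and 1 lower: S. pombe scaling gave 0 lower, no filter 1 and 2, the depth term 2 and 3, and a library left out 0 to 1 and 0 to 3. Of receptors and JAK-STAT genes, 1 was called higher and 1 lower: DESeq2 gave 0 lower, S. pombe scaling 0 and 0, no filter 2 higher, the depth term 4 higher, and a library left out 1 to 3 higher and 0 to 1 lower. Of other interferon-stimulated genes, 1 was called higher and 3 lower: DESeq2 gave 1 lower, S. pombe scaling 0 and 0, no filter 4 and 5, the depth term 5 and 5, and a library left out 0 to 3 and 1 to 5. Of genes near the 9, 2 were called higher and 3 lower: DESeq2 gave 1 lower, S. pombe scaling 0 and 1, no filter 8 and 6, the depth term 10 and 16, and a library left out 0 to 9 and 1 to 7.

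Across these settings 8 of the 9 antiviral genes had 1 sign, with Oas1a between -2.11 and -1.61, Oas1g between -2.90 and -1.90 and Ddx58 between -1.17 and -0.57. Ifih1 ran from -0.55 to 0.46, and was not tested under the filter of 1 CPM. The biological coefficient of variation was 0.0534 with the depth term, which is defined from library totals and not from the labels. Counts were under 100 in all 4 libraries for Oas1a, Oas1g, Oasl2, Ifih1, Irf9 and Ifit2, and in KO replicate 1 for Stat2, which limits their precision. The cause of the changes between settings was not tested.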
